A study of Mus musculus with 6 samples.

Results

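The 38 genes described here make fatty acids, lengthen and desaturate them, store them as neutral lipid, or belong to the lipid programme of sebocytes, which produce the oily sebum of sebaceous glands. They were listed by name, and each was read from its probe set of highest mean over the 6 arrays among probe sets annotated to exactly 1 gene symbol. Such a probe set was found for 36 of the 38 genes, out of 18193 genes with one on the array. Acsl1 and Soat1 were not analysed here. Testing required a value above the array's own 40th percentile on 3 or more of the 6 arrays, which 35 of the 36 passed, among 13222 genes tested in all. Mc5r did not pass. The list was divided by background knowledge into 7 sebocyte-associated genes (Elovl3, Far2, Mc5r, Cidea, Scd1, Mgst1 and Pparg) and 31 general genes of fatty acid and lipid metabolism.

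RNA came from tumour epithelial cells sorted from benign, chemically induced skin papillomas of mice, and was hybridised to 6 Affymetrix whole-genome mouse arrays. The Sox2cKO group held 3 arrays from K14CREER:SOX2fl/fl mice, in which a Cre recombinase switched on by tamoxifen and driven from the promoter of keratin 14, a basal keratinocyte gene, deletes the floxed Sox2 gene. The CTRL group held 3 arrays from control mice, whose genotype the labels do not give further. Both groups received tamoxifen for 1 week, and both were sorted as living Epcam+ alpha6+ cells without CD45, CD31 or CD140a. The series' design speaks of 3 biological experiments, while the labels give no age or sex and do not say how many tumours made up a sample. Sox2 encodes a DNA-binding regulator that maintains stem cells, and the experiment asks how benign tumour cells differ once it is deleted.

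Fatty acid synthesis starts from acetyl-CoA, which Acly makes from citrate and Acss2 from acetate. Acetyl-CoA carboxylase turns it into malonyl-CoA, and fatty acid synthase builds palmitate, which elongases and desaturases modify. Sebocytes run this pathway at a high rate, add very long chains and fatty alcohols, form wax esters and triglycerides, and release the lipid when the whole cell breaks down. Keratinocytes of the epidermis also make fatty acids, for membranes and for the barrier.

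All values are log2 signals as deposited, and differences are Sox2cKO minus CTRL on that scale. Sox2 read 4.07, 4.63 and 3.23 in Sox2cKO arrays, against 7.19, 8.31 and 8.18 in CTRL arrays, and was lower in every Sox2cKO array, with an adjusted p of 0.316 in limma. Xist, the RNA of the inactive X chromosome, gave a female pattern in 0 of 3 Sox2cKO arrays and in 2 of 3 CTRL arrays (replicates 2 and 3), so sex and group were partly confounded. Of the sort markers, Epcam read 10.57 to 11.24 in Sox2cKO arrays and 11.07 to 11.43 in CTRL arrays, and Itga6 (alpha6) 12.07 to 12.45 in Sox2cKO arrays and 12.12 to 12.25 in CTRL arrays. Ptprc (CD45) read 4.58 to 5.51 in Sox2cKO arrays and 4.69 to 5.15 in CTRL arrays, and Pecam1 (CD31) was above the 40th percentile on 0 of the 6 arrays. Pdgfra (CD140a) read 5.49, 6.21 and 7.25 in Sox2cKO arrays, against 5.52, 5.32 and 5.05 in CTRL arrays. Array medians lay between 5.42 and 5.46, so a shift shared by most genes would not be seen.

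No lipid gene differed between Sox2cKO and CTRL cells beyond the test over all genes, and the lowest differences were those of the sebocyte-associated genes Elovl3 and Far2, followed by the general gene Lpl. All 6 sebocyte-associated genes tested had a lower mean in Sox2cKO arrays, with a median difference of -0.57. Of the 29 general genes tested 19 were lower, with a median of -0.059. Over all genes tested 49.4% were lower, and the median was 0.0027. With limma, 0 of the 35 lipid genes had an adjusted p under 0.05 (0% of all genes), and 2 had an unadjusted p under 0.05, Lpl and Acss2 (2.68% of all genes). The smallest adjusted p among the lipid genes was 0.999. The groups did not overlap in 0 of the 35 genes, against 5.85% of all genes.

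**Figure D1:**
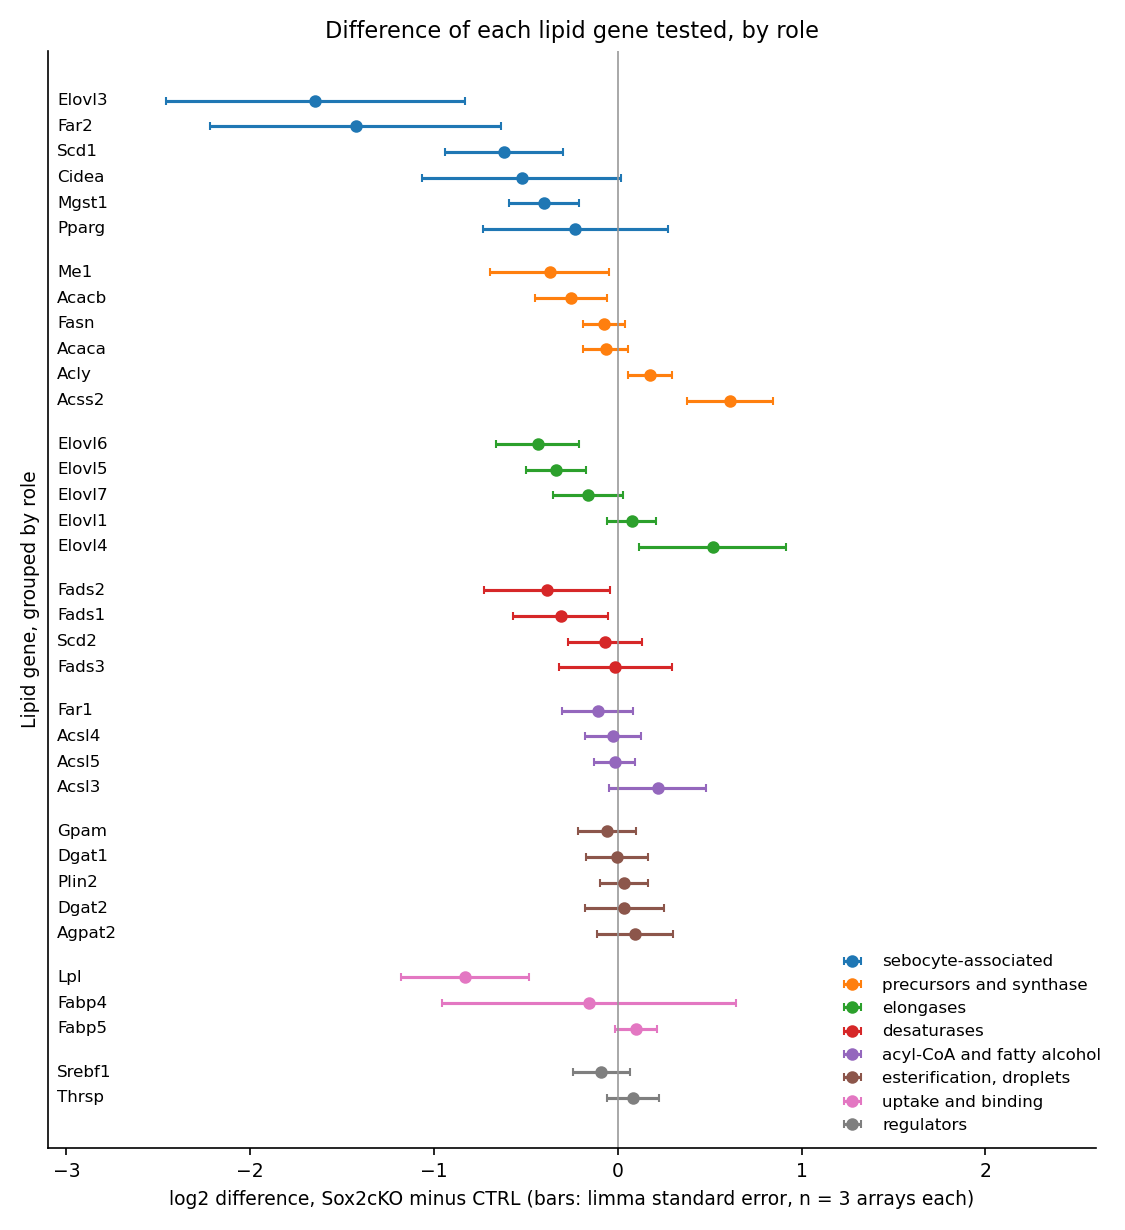
Difference of each of the 35 lipid genes tested, Sox2cKO minus CTRL on the log2 scale, grouped by role; points are means and bars the limma standard error (n = 3 arrays each). The sebocyte-associated genes lie to the left, from Elovl3 at -1.65 to Pparg at -0.23, Acss2 lies farthest to the right at 0.61, and the esterification and droplet genes lie within 0.1 of 0.

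Elovl3, an elongase of very long saturated and monounsaturated chains in sebaceous glands and brown fat, had the lowest difference of the list. It read 5.28, 6.43 and 4.19 in Sox2cKO arrays, against 6.001, 8.69 and 6.14 in CTRL arrays. Sox2cKO replicate 3 was the lowest and CTRL replicate 2 the highest, while Sox2cKO replicate 2 lay above 2 of the 3 CTRL arrays. The means were 5.30 ± 1.12 in Sox2cKO arrays and 6.95 ± 1.52 in CTRL arrays (SD, n = 3 each). The difference was -1.65 (standard error 0.81, 3.13-fold lower, limma adjusted p 0.999), and without CTRL replicate 2 it was -0.77, without Sox2cKO replicate 3 -1.09, and with sex (read from Xist) as a covariate -0.70.

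Far2, which reduces fatty acyl-CoA to the fatty alcohols of wax esters, followed the same arrays. Its values were 4.57, 6.18 and 3.81 in Sox2cKO arrays, against 5.55, 7.86 and 5.43 in CTRL arrays. The means were 4.86 ± 1.21 in Sox2cKO arrays and 6.28 ± 1.37 in CTRL arrays (SD, n = 3 each), with a difference of -1.43 (standard error 0.79, 2.69-fold lower), with -0.64 when CTRL replicate 2 was left out, -0.91 when Sox2cKO replicate 3 was, and -0.70 with the sex covariate. For both genes the lowest arrays fell below the 40th percentile of about 4.9, towards the background of 3.34 to 3.41 read by unspiked bacterial probe sets, so their differences are compressed at the low end.

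Cidea, a protein of lipid droplets that lets them grow, read 5.98, 7.12 and 5.12 in Sox2cKO arrays, against 6.33, 7.41 and 6.05 in CTRL arrays. Replicate 2 of each group was that group's highest array, and the ranges overlapped widely. The difference was -0.52 (standard error 0.54), -0.11 without CTRL replicate 2, -0.044 without Sox2cKO replicate 3, -1.05 without Sox2cKO replicate 2, -0.80 without CTRL replicate 3 and -0.25 with the sex covariate.

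Scd1, the stearoyl-CoA desaturase whose loss leaves mice with shrunken sebaceous glands, read 10.54, 10.86 and 9.98 in Sox2cKO arrays, against 10.55, 11.65 and 11.06 in CTRL arrays. Both groups shared a level near 10.5 in replicate 1, and the CTRL arrays were higher in the other replicates. The difference was -0.62 (standard error 0.32), -0.34 without CTRL replicate 2 and -0.38 without Sox2cKO replicate 3. With the sex covariate the Scd1 difference was only -0.086.

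Mgst1, a membrane-bound glutathione transferase that is abundant in sebocytes, read 11.68, 11.98 and 11.34 in Sox2cKO arrays, against 11.99, 12.29 and 11.93 in CTRL arrays. Only Sox2cKO replicate 2 reached the CTRL range. The difference was -0.40 with a standard error of 0.19, -0.24 without Sox2cKO replicate 3, -0.29 without CTRL replicate 2 and -0.32 with the sex covariate.

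Pparg, the nuclear receptor that drives sebocyte and adipocyte differentiation, did not share this profile. It read 4.78, 6.82 and 4.93 in Sox2cKO arrays, against 5.58, 5.94 and 5.72 in CTRL arrays, so that a Sox2cKO array was the highest of all 6. The difference of -0.23 (standard error 0.50) was 0.13 without Sox2cKO replicate 1, 0.057 without Sox2cKO replicate 3, -0.89 without Sox2cKO replicate 2 and -0.066 with the sex covariate. Mc5r, the melanocortin receptor of sebaceous glands, read 4.79, 4.75 and 4.74 in Sox2cKO arrays and 4.82, 4.94 and 4.59 in CTRL arrays, and exceeded the 40th percentile on 1 array only.

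The median of the 6 sebocyte-associated genes depended on single arrays in size, though not in sign. It was -0.32 without CTRL replicate 2, -0.31 without Sox2cKO replicate 3 and -0.97 without Sox2cKO replicate 2. Without Sox2cKO replicate 1, CTRL replicate 1 or CTRL replicate 3 it was -0.57, -0.77 and -0.72. It was -0.29 with a sex covariate, which sets the Sox2cKO arrays against CTRL replicate 1 alone. The mean of the 6 genes, each centred on its own mean, was -0.58, 0.52 and -1.15 in Sox2cKO replicates 1 to 3, against -0.05, 1.26 and 0.01 in CTRL replicates 1 to 3. The 29 general genes gave -0.09, 0.03 and -0.04 in Sox2cKO arrays, against 0.01, 0.09 and -0.01 in CTRL arrays. Bulk RNA does not show which of the sorted cells made these RNAs, so numbers of cells and RNA per cell cannot be told apart.

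**Figure D2:**
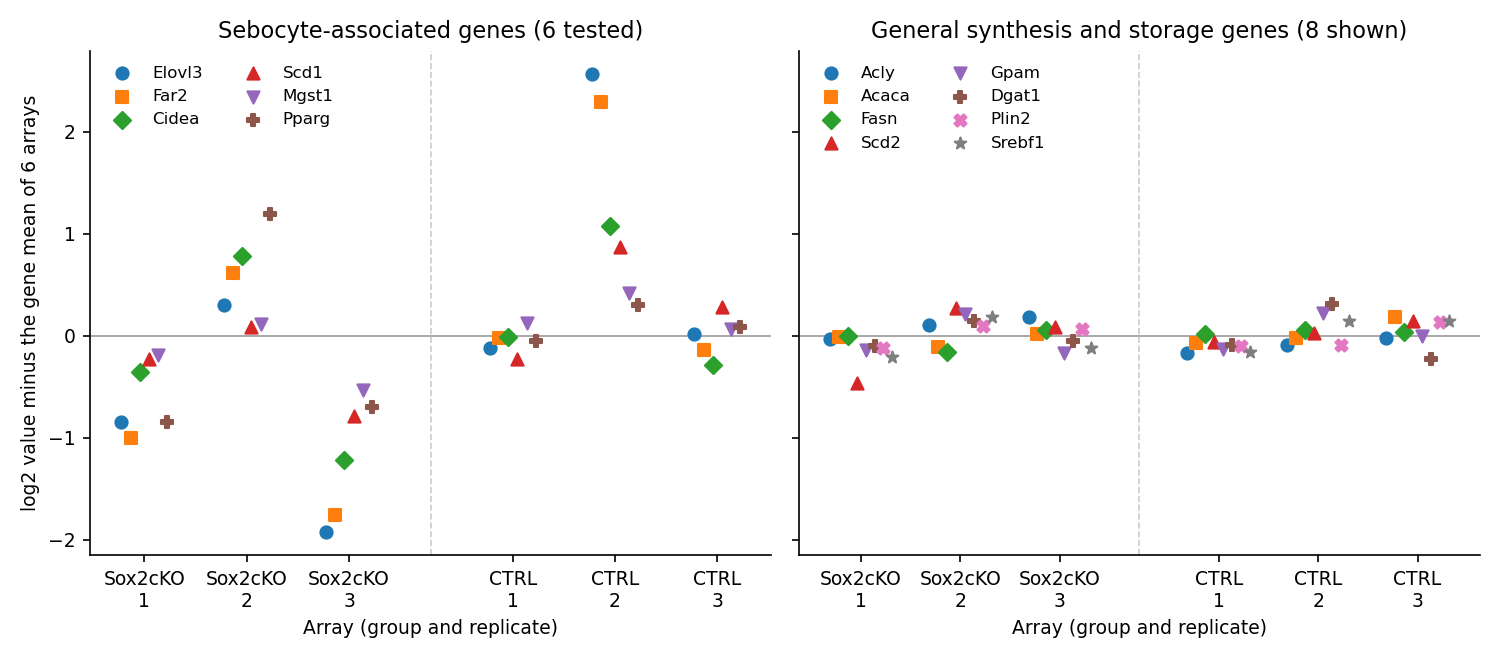
Value of each gene in each array after subtracting the gene's mean over the 6 arrays (log2 scale; Sox2cKO arrays left of the dashed line, CTRL arrays right of it). Among sebocyte-associated genes (left panel) Elovl3, Far2, Cidea, Scd1 and Mgst1 are lowest in Sox2cKO replicate 3 and highest in CTRL replicate 2. The 8 general genes of the right panel (same axis) were picked for display and span from 0.22 (Fasn) to 0.74 (Scd2). Some general genes not shown span more, among them Fabp4 (2.80), Lpl (1.88) and Elovl4 (1.48), against 0.95 for Mgst1.

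Lpl, the lipoprotein lipase that frees fatty acids from circulating triglyceride, had the lowest difference of the general genes. Of the tested sebocyte-associated genes only Elovl3 and Far2 had lower ones. Lpl read 6.63, 7.35 and 6.75 in Sox2cKO arrays, against 7.46, 8.51 and 7.25 in CTRL arrays. Only Sox2cKO replicate 2 entered the CTRL range, by passing CTRL replicate 3. The difference was -0.83 (standard error 0.35, 1.78-fold lower, limma unadjusted p 0.0473, adjusted p 0.999), with -0.40 in its other tested probe set, -0.45 without CTRL replicate 2 and -0.55 with the sex covariate.

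The fatty acid binding proteins behaved otherwise. Fabp5, the epidermal form, read 13.95, 13.99 and 13.90 in Sox2cKO arrays, against 13.93, 13.74 and 13.88 in CTRL arrays, a difference of 0.099. Fabp4, the form of adipocytes, macrophages and capillary endothelium, read 10.11, 11.52 and 9.14 in Sox2cKO arrays, against 11.94, 9.14 and 10.15 in CTRL arrays. Its spread within each group far exceeded its difference of -0.16, which was 0.61 without CTRL replicate 1, 0.40 without Sox2cKO replicate 3 -0.79 without either replicate 2, and -1.69 with the sex covariate. Of 7 adipocyte markers 5 were measured, and Adipoq (3.52 to 3.80 in Sox2cKO arrays, 3.50 to 3.96 in CTRL arrays), Lep and Cidec exceeded the 40th percentile on no array. The other measured ones exceeded it on all 6 arrays: Retn read 6.40 to 6.63 in Sox2cKO arrays and 6.28 to 6.78 in CTRL arrays, and Lipe 5.51 to 6.34 in Sox2cKO arrays and 5.67 to 6.08 in CTRL arrays. The mean level of the 5 was 4.86 to 5.01 in Sox2cKO arrays and 4.79 to 5.00 in CTRL arrays.

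Among the enzymes that supply precursors and build the chain, Acss2 stood apart from the rest. Acss2, the acetyl-CoA synthetase of cytosol and nucleus, read 7.90, 8.09 and 7.25 in Sox2cKO arrays, against 7.38, 7.07 and 6.95 in CTRL arrays. Sox2cKO replicates 1 and 2 lay above all CTRL arrays, and Sox2cKO replicate 3 lay below CTRL replicate 1. The difference was 0.61 (standard error 0.24, 1.53-fold higher, limma unadjusted p 0.0348, adjusted p 0.999), and its range over the arrays left out in turn was 0.44 to 0.86, with 0.36 under the sex covariate. A second tested probe set gave 0.62, and in it every Sox2cKO array (7.57, 7.76 and 7.25) exceeded every CTRL array (7.04, 6.81 and 6.85).

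Fasn, the fatty acid synthase, read 10.09, 9.93 and 10.14 in Sox2cKO arrays, against 10.11, 10.14 and 10.13 in CTRL arrays. The difference was -0.075 with a standard error of 0.12, and the groups overlapped. Acaca, the acetyl-CoA carboxylase of lipogenesis, differed by -0.067, and by -0.36 in its other tested probe set, which lay near the 40th percentile. Acly, the ATP citrate lyase, differed by 0.18 (standard error 0.12), with 0.35 and 0.10 in its other tested probe sets. Me1, the malic enzyme that supplies NADPH, differed by -0.37, by -0.0056 without CTRL replicate 2, and by -0.089 in its other tested probe set. In the probe set used it read 8.06 to 8.54 in Sox2cKO arrays, against 9.41 in CTRL replicate 2. Acacb, the carboxylase form linked to the control of fatty acid oxidation, lay near the 40th percentile (4.88 to 5.29 in Sox2cKO arrays, 5.16 to 5.74 in CTRL arrays), and its difference of -0.26 was -0.071 without CTRL replicate 2, -0.14 without Sox2cKO replicate 3 and -0.097 with the sex covariate.

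The elongases did not share a direction. Elovl6, which extends palmitate to stearate, read 9.09, 9.32 and 8.88 in Sox2cKO arrays, against 9.27, 10.01 and 9.31 in CTRL arrays. Only Sox2cKO replicate 2 reached the CTRL range, and the difference was -0.44 (standard error 0.23), -0.20 without CTRL replicate 2 and -0.17 with the sex covariate. Elovl5, an elongase of polyunsaturated chains, read 9.55, 9.35 and 9.77 in Sox2cKO arrays, against 9.66, 9.96 and 10.05 in CTRL arrays, a difference of -0.34 (standard error 0.16) with the smallest unadjusted p of the family, 0.0767. Its probe set carries the suffix that Affymetrix gives to sets that may bind other transcripts, as do those used for Acly and Elovl1, and its other tested probe set gave -0.22. With the sex covariate the Elovl5 difference was -0.11.

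Elovl4, whose very long chains enter the ceramides of the epidermal barrier, lay on the other side of 0. It read 9.82, 10.04 and 8.74 in Sox2cKO arrays, against 9.66, 8.83 and 8.56 in CTRL arrays, a difference of 0.52 (standard error 0.40) that was -0.12 with the sex covariate. It was 0.26 without Sox2cKO replicate 2, 0.29 without CTRL replicate 3, 0.84 without CTRL replicate 1 and 0.91 without Sox2cKO replicate 3. Its 3 highest arrays, Sox2cKO replicates 1 and 2 and CTRL replicate 1, were also the 3 highest in mean level of 5 suprabasal keratinocyte markers (10.81, 10.69 and 10.15 in Sox2cKO arrays, against 10.66, 9.88 and 9.93 in CTRL arrays), whose part in this value was not tested. Elovl7 differed by -0.16, and by 0.041 without CTRL replicate 2. Elovl1, another elongase of long saturated chains, differed by 0.075.

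The promoters of 4 genes are shown, those of Far2 and Elovl6, which read lower in Sox2cKO cells, of Acss2, which read higher, and of Fasn, which was even. They were chosen after the values were seen, among the 27 of 38 genes with a window in the RefSeq promoter table (build GRCm38.p6), and each runs from 250 bases before the start site to 50 after it. Capitals mark matches on either strand to the sterol regulatory element TCACNCCAC bound by SREBP proteins, the E-box CACGTG, the CCAAT box, the GC box GGGCGG or the PPAR direct repeat. The windows are chr6:148047166-148047465 (plus strand) for Far2, chr3:129532136-129532435 (plus strand) for Elovl6, chr2:155517793-155518092 (plus strand) for Acss2 and chr11:120824498-120824797 (minus strand) for Fasn.
Far2: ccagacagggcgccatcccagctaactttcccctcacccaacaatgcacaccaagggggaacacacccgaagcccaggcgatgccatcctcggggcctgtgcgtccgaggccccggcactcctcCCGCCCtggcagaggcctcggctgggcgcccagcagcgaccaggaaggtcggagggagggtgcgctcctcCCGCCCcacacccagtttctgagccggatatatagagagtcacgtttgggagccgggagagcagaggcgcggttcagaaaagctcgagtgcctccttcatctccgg
Elovl6: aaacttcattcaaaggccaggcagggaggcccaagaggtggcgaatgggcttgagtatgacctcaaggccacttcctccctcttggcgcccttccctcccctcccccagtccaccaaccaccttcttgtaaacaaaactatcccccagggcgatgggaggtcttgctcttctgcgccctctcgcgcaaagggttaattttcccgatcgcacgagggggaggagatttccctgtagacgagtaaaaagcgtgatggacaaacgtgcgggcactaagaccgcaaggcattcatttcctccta
Acss2: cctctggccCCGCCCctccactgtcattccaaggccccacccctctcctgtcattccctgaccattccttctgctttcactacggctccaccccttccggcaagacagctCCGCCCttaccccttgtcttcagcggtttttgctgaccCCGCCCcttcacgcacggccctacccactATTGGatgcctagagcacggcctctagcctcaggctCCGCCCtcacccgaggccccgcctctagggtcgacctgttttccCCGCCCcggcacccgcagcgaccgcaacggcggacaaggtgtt
Fasn: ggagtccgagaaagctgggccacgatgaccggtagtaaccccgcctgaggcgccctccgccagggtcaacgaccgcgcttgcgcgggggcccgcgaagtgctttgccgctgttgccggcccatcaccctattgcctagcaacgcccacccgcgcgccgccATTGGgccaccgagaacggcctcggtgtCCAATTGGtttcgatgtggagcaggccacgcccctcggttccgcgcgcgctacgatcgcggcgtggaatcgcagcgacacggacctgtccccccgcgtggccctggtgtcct

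The Acss2 window held 5 GC boxes and 1 CCAAT box, the Far2 window 2 GC boxes, the Fasn window 3 CCAAT boxes of which a pair overlap on opposite strands, and the Elovl6 window no match. A GC box occurs in 35.7% and a CCAAT box in 37.4% of all 32851 windows. Of the 36 windows of lipid genes, 23 held a GC box and 21 a CCAAT box, which was not tested. The sterol regulatory element occurs in 1.24% of all windows. Of the lipid genes with a window 1 held it in this spelling, Acsl1, which was not analysed here, and 0 of the measured ones did. The E-box (7.15% of windows) was found for Elovl4, Elovl5 and Plin2, and the PPAR repeat (0.381%) for Elovl1. These are letter matches in short windows and say nothing of binding.

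All 4 desaturases of the general list had differences below 0 in the probe sets used. Of their 7 other tested probe sets only 2, those of Fads2, shared that direction. None of the 4 genes had an unadjusted p under 0.05 in limma without the replicate block. Fads2, the delta-6 desaturase, read 6.68, 6.30 and 7.51 in Sox2cKO arrays, against 7.04, 6.88 and 7.72 in CTRL arrays, a difference of -0.39 (standard error 0.34). It was -0.12 without Sox2cKO replicate 2, -0.13 without CTRL replicate 3, -0.73 without Sox2cKO replicate 3 and -0.22 with the sex covariate, while blocking on the replicate number in limma gave a standard error of 0.12 and an unadjusted p of 0.0235 (adjusted p 0.948). Fads1, the delta-5 desaturase, had the smallest unadjusted p of the 4 (0.270) and read 7.46, 7.16 and 8.07 in Sox2cKO arrays, against 7.52, 8.10 and 8.002 in CTRL arrays. Its difference of -0.31 was -0.11 without Sox2cKO replicate 2, -0.56 without Sox2cKO replicate 3 and 0.041 with the sex covariate. Both genes had their lowest value in Sox2cKO replicate 2, the Sox2cKO array in which the sebocyte-associated genes were highest. Scd2, a stearoyl-CoA desaturase expressed broadly, differed by -0.070, against -0.62 for Scd1, and Fads3 differed by -0.014. With the sex covariate the difference was 0.029 for Scd2 and 0.33 for Fads3.

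Acyl-CoA synthetases, which activate fatty acids, differed little in the probe sets used. Acsl3, the form of lipid droplets, read 9.84, 9.05 and 9.38 in Sox2cKO arrays, against 9.51, 8.75 and 9.36 in CTRL arrays. The difference of 0.22 (standard error 0.26) was 0.0062 without Sox2cKO replicate 1, -0.013 without CTRL replicate 2 and -0.090 with the sex covariate. The other tested probe set of Acsl3 gave 0.50. Acsl4 and Acsl5 differed by -0.025 and -0.017. Far1, the fatty acyl-CoA reductase expressed widely and needed for ether lipids, differed by -0.11 (standard error 0.19), against -1.43 for its paralogue Far2.

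The 5 tested esterification and droplet genes, which exclude Cidea, all had differences within 0.1 of 0 in the probe sets used. Agpat2, which makes phosphatidic acid, had the smallest unadjusted p among them (0.667) and read 8.48, 8.53 and 8.78 in Sox2cKO arrays, against 8.42, 8.92 and 8.17 in CTRL arrays. Gpam, the first acyltransferase of the pathway, differed by -0.059, the diacylglycerol acyltransferases Dgat1 and Dgat2 by -0.0045 and 0.036, and the droplet coat protein gene Plin2 by 0.032. Standard errors of these 5 genes lay between 0.13 and 0.22. Their other tested probe sets gave 0.32 for Gpam, -0.18 for Dgat1 and 0.078 for Dgat2.

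The regulators of the list showed no difference beyond their spread. Srebf1, the transcription factor that drives lipogenic enzymes, read 10.09, 10.49 and 10.18 in Sox2cKO arrays, against 10.14, 10.44 and 10.44 in CTRL arrays, a difference of -0.089 (standard error 0.16). Thrsp, a small protein linked to lipogenesis, read 5.86, 5.54 and 5.88 in Sox2cKO arrays, against 5.72, 5.54 and 5.78 in CTRL arrays.

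The labels number the arrays 1 to 3 in both groups, and over all genes the deviations from the group mean were correlated between same-numbered arrays (0.206 to 0.288). Within the same-numbered pairs, 5 of the 6 sebocyte-associated genes read lower in Sox2cKO in all 3 pairs, against 12.7% of all genes. Among the general genes 6 of 29 did, which were Lpl, Elovl6, Elovl5, Fads2, Acacb and Gpam. Far2 differed by -0.98, -1.68 and -1.62 in pairs 1 to 3, and Elovl3 by -0.72, -2.27 and -1.95. Lpl differed by -0.82, -1.16 and -0.51, and Mgst1 by -0.31, -0.31 and -0.59. The difference of Scd1 in pair 1 was only -0.0069, and those of Gpam in pairs 1 and 2 were -0.0087 and -0.0034.

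Genes that read higher in Sox2cKO in all 3 pairs numbered 5 of 35, against 12.1% of all genes, and all 5 were general genes: Acss2, Elovl4, Acsl3, Acly and Fabp5. For Acss2 the pair differences were 0.52, 1.015 and 0.30, and for Acly 0.13, 0.20 and 0.20. Pair 1 was the pair in which neither array had the female pattern of Xist. In it Far2, Elovl3, Lpl, Cidea (-0.34), Mgst1 and Elovl6 (-0.18) were lower in Sox2cKO, while Scd1 differed by only -0.0069. These genes were picked as lower in all 3 pairs, and a pair holds only 1 array of each group. The part of sex was not tested by it.

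**Figure D3:**
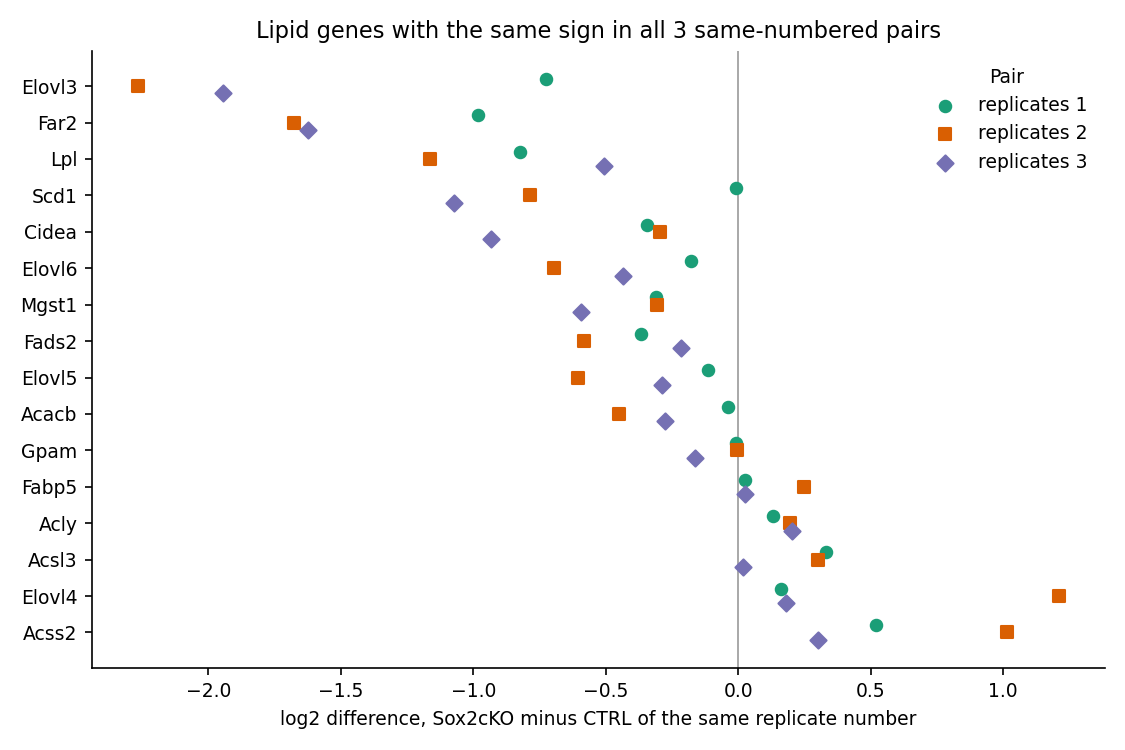
Difference within each same-numbered pair (Sox2cKO minus CTRL, log2 scale) for the 16 lipid genes with the same sign in all 3 pairs; each symbol is 1 pair. Far2 lies between -0.98 and -1.68 and Acss2 between 0.30 and 1.015, while Gpam lies between -0.17 and -0.0034.

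When limma took the replicate number as a blocking term, 0 of the 35 genes had an adjusted p under 0.05 (0% of all genes), and 9 had an unadjusted p under 0.05, against 2 without the block. The 9 were Far2, Lpl, Elovl3, Acss2, Mgst1, Fads2, Cidea, Elovl6 and Scd1, of which all but Acss2 were lower in Sox2cKO, and 4.96% of all genes passed this unadjusted level. Far2 had the smallest p of the list in this fit (unadjusted 0.000393, adjusted 0.572 by limma), with its standard error at 0.17. The adjusted p of Elovl3 was 0.852 and that of Acss2 0.884 in this fit.

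The lipid genes differed widely from each other in how much they varied over the 6 arrays, a range that includes any difference between the groups. Elovl3 spanned 4.50 log2 units from its lowest to its highest array, more than 99.9% of all genes tested, and Far2 spanned 4.05, more than 99.8%. Fabp4 (2.80), Cidea (2.30), Pparg (2.03), Lpl (1.88) and Scd1 (1.66) also spanned more than most genes, with Scd1, the lowest of these 5, above 96.4% of them. At the other end, Acsl5 spanned 0.18 and Fasn 0.22, and only 3.24% and 5.91% of all genes spanned less. The median gene spanned 0.50. Sox2cKO replicate 3 was the lowest array for 10 of the 35 lipid genes (19.2% of all genes), and CTRL replicate 2 the highest for 16 of the 35 (23.5% of all genes). Both held for 5 of the 6 sebocyte-associated genes and for 3 of the 29 general genes (Acacb, Elovl6 and Gpam). This arrangement was found in 5.5% of all genes. It was picked with the values of these lipid genes in view, so the share is no test of it.

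**Figure D4:**
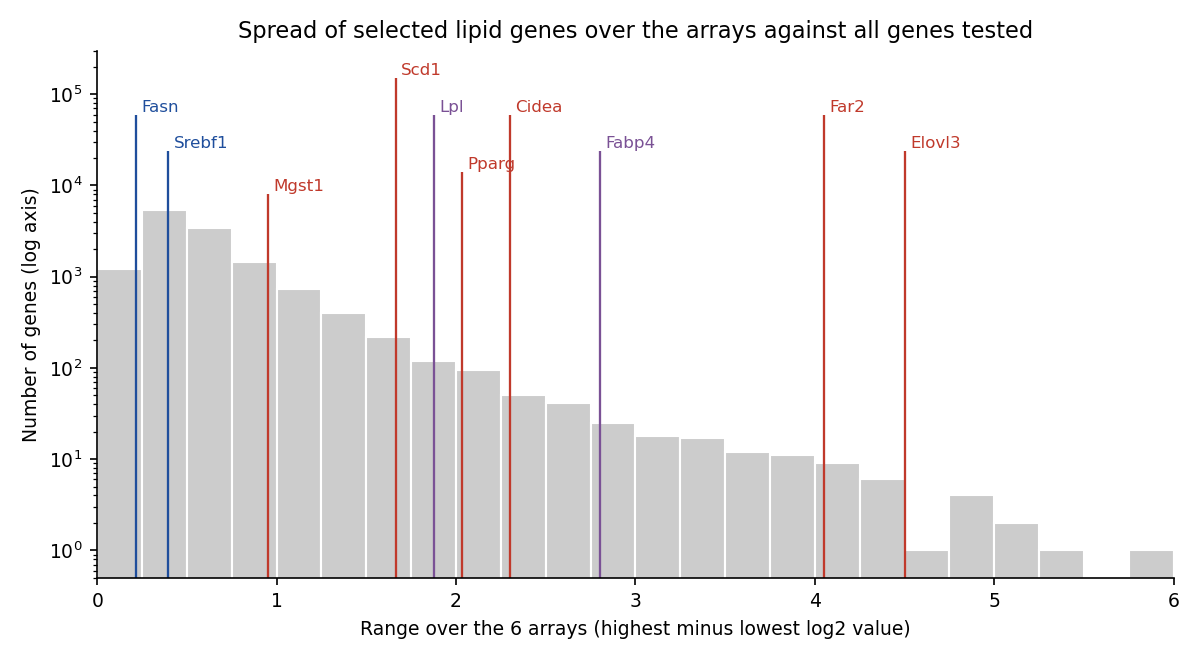
Range over the 6 arrays (highest minus lowest log2 value) of all 13222 genes tested (grey bars, log count axis), with sebocyte-associated genes marked in red, genes of uptake and binding in purple and general synthesis genes in blue. Fasn lies at 0.22 in the lowest bar, and Far2 and Elovl3 lie at 4.05 and 4.50 in the upper tail.

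Where a gene had more than 1 tested probe set, the others mostly gave the same sign. Of 41 further tested probe sets of the lipid genes, 29 shared the direction of the set used. Both other sets of Elovl6 did (-0.31 and -0.17), as did the second sets of Scd1 (-0.31) and Lpl. No other set of Scd2, Fads3, Acsl4, Fads1, Gpam or Thrsp did.

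Of 40 other genes of the pathway, 37 were measured and 34 tested, and with limma 0 had an adjusted p under 0.05 in either direction and 0 an unadjusted p under 0.05. Their median difference was 0.016, with 15 lower and 19 higher. Mgll, the monoacylglycerol lipase that completes the breakdown of triglyceride, had the smallest p (0.0702). It read 6.70, 7.78 and 5.64 in Sox2cKO arrays, against 7.49, 8.98 and 7.46 in CTRL arrays, a difference of -1.27 (standard error 0.60), and 2 of its 3 other tested probe sets shared the sign. Its 6 arrays fell in the same order as those of Far2 and Cidea. That order, taken from Far2 with its values in view, was held by 98 genes (0.741% of those tested).

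Mogat1, a monoacylglycerol acyltransferase, differed by 0.35 (standard error 0.17), and Hacd1, a dehydratase of the elongation cycle, by -0.22 (standard error 0.12), with all 3 Sox2cKO arrays below all CTRL arrays. Of the regulators of the pathway, Insig1, the protein that holds SREBP precursors in the endoplasmic reticulum, had the smallest p and read 9.88, 9.004 and 9.85 in Sox2cKO arrays, against 9.73, 8.58 and 9.15 in CTRL arrays, a difference of 0.43 (standard error 0.34). Its lowest arrays were replicate 2 of each group, in which Elovl3, Far2 and Cidea were highest. The nuclear receptor genes Ppard and Nr1h3 followed with 0.14 and 0.12.

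Markers of other cells the sort could hold moved with some of these arrays. Of 8 further sebocyte and sebaceous duct markers 5 were measured (Awat1, Awat2 and Dgat2l6 were not analysed here), and their mean log2 level was 6.76 to 7.99 in Sox2cKO arrays and 7.57 to 7.68 in CTRL arrays. Krt79, a keratin of the sebaceous duct, read 8.55, 10.58 and 6.47 in Sox2cKO arrays, against 8.68, 9.59 and 9.45 in CTRL arrays, lowest in the same array as Elovl3. Lrig1 and Gata6 were also lowest there but differed by only -0.065 and 0.089 between the groups. Scd3 differed by -0.30 and was lowest in Sox2cKO replicate 1, and Prdm1 differed by -0.0032 and was lowest in Sox2cKO replicate 2. The median difference of the 5 was -0.065. All 8 fibroblast and pericyte markers had higher means in Sox2cKO, with a mean log2 level of 7.96, 8.49 and 9.56 in Sox2cKO arrays, against 7.83, 7.82 and 6.94 in CTRL arrays. Sox2cKO replicate 3, lowest for 5 of the 6 sebocyte-associated genes, was thus the array highest in fibroblast markers. Of the 4 melanocyte markers 3 were also lowest there, all but Mlana, and their mean level was 6.30, 7.36 and 5.08 in Sox2cKO arrays, against 6.44, 6.45 and 5.82 in CTRL arrays.

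All 5 suprabasal keratinocyte markers had higher means in Sox2cKO by the levels given for Elovl4. The 6 basal markers read 12.00 to 12.16 in Sox2cKO arrays and 12.10 to 12.17 in CTRL arrays. The 7 leukocyte and Langerhans cell markers read 5.79 to 6.04 in Sox2cKO arrays and 5.82 to 6.02 in CTRL arrays on average. Among them Cd74, the invariant chain of antigen-presenting cells, read 7.14, 7.70 and 6.59 in Sox2cKO arrays, against 8.80, 7.76 and 8.14 in CTRL arrays. Every Sox2cKO array lay below every CTRL array, and the difference was -1.09 (standard error 0.34, limma unadjusted p 0.0149, adjusted p 0.999). The 4 endothelial markers read 5.05 to 5.19 in Sox2cKO arrays and 4.83 to 5.09 in CTRL arrays, with Cdh5 above the 40th percentile on no array. The part of these markers, and of sex, in the lipid gene values was not tested beyond the covariate given.

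**Figure D5:**
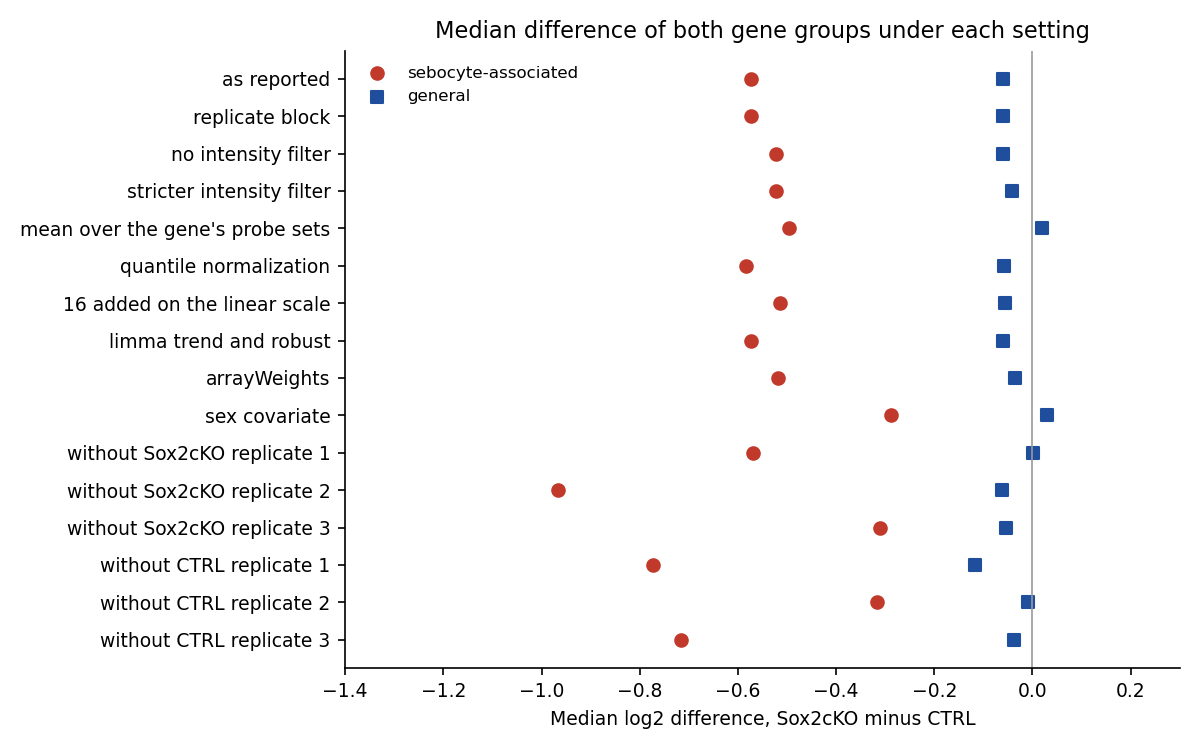
Median log2 difference (Sox2cKO minus CTRL) of the sebocyte-associated genes (circles) and of the general genes (squares) as reported and under each of 15 other settings. The sebocyte-associated median stays below 0, from -0.97 to -0.29, and the general median lies between -0.12 and 0.029.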

How the data were processed

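The authors deposited 1 log2 value per probe set and array, a scale read from the range of the deposited values. Per the submitters' processing notes they used R 2.14.0. Background correction, summarising and normalization are not given in the sources used here. Of 45037 mouse probe sets, 34945 had 1 gene symbol in the platform annotation, 932 several and 9160 none. Two-sided p-values came from lmFit and eBayes (limma 3.58.1, R 4.3.3) with group as the only term, adjusted by Benjamini-Hochberg over 13222 genes at a threshold of 0.05. The procedure was tested on simulated data. The simulated noise was set from genes other than the most variable ones and held no sex or replicate effect. The labels do not state that same-numbered arrays are paired. Such arrays were read as pairs because all 3 same-numbered correlations exceeded 0.1 (others -0.333 to 0.0636). Deviations from the mean of 3 arrays constrain each other, so these correlations are not independent. Whether the arrays are paired was not tested. The number of arrays limits the precision. For 3 arrays against 3 an exact permutation test cannot go below 0.1 and was not used. Per-array values were given for the sebocyte-associated genes, Fasn, Srebf1 and the gene of smallest p in each role, and the 3 of smallest p in each list of other pathway genes were named; any other gene was picked with its values in view. The genes and lists were chosen with earlier results of these data known. The planned protein comparison of paralogues was not made.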

Additional observations from a re-analysis of the deposited data

How the results depend on the processing

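Across 15 other settings 0 lipid genes passed an adjusted p of 0.05 by limma. Over all genes 0 passed as reported, 1 with a sex covariate, and 0 to 5 when arrays were left out in turn (5 without CTRL replicate 1). With the replicate number as a block, a pairing that the labels do not state, the count over all genes stayed at 0. No adjusted call was changed, and lipid genes at an unadjusted limma p under 0.05 numbered 9 against 2. The general median of -0.059 was 0.02 with probe sets averaged, 0.029 with the sex covariate, and -0.12 to 0.00059 with arrays left out. Of 35 gene differences 16 kept their direction in every setting that gave them a value, among them Cidea, Scd1, Mgst1, Lpl, Elovl6 and Acss2, and also Elovl3, Far2 and Acacb, which, like Pparg, were not tested under the stricter intensity filter. With the sex covariate, differences of the opposite sign were Acaca 0.032, Elovl1 -0.048, Elovl4 -0.12, Scd2 0.029, Fads1 0.041, Fads3 0.33, Acsl3 -0.090, Acsl4 0.20, Far1 0.087, Gpam 0.097, Dgat1 0.084 and Srebf1 0.11. With probe sets averaged they were Elovl7 0.019, Scd2 0.086, Fads3 0.067, Acsl4 0.049 and Gpam 0.13, and with array weights Fads3 0.059, Dgat1 0.0074 and Plin2 -0.015. With arrays left out, differences spanned 0 for Pparg (-0.89 to 0.13), Acaca (-0.12 to 0.010), Elovl7 (-0.30 to 0.041), Scd2 (-0.23 to 0.15), Fads3 (-0.34 to 0.24), Acsl3 (-0.013 to 0.40), Acsl4 (-0.14 to 0.081), Acsl5 (-0.072 to 0.020), Far1 (-0.26 to 0.062), Gpam (-0.18 to 0.036), Agpat2 (-0.073 to 0.30), Dgat1 (-0.12 to 0.15), Dgat2 (-0.14 to 0.24), Plin2 (-0.0092 to 0.11) and Fabp4 (-0.79 to 0.61). The cause was not tested. Signals near background, as for Mc5r and Far2, limit the size of difference that can be read.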
